A study of Mus musculus with 2 samples.

Results

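The 10 genes examined here, in late retinal progenitor cells (RPCs), belong to the Hedgehog, Wnt and FGF signalling pathways. The Wnt genes are Sfrp2, Fzd5, Axin2 and Lef1, the FGF genes are Fgf15, Fgfr1 and Spry2, and the Hedgehog genes are Gli1, Ptch1 and Smo. All 10 were chosen by name, with earlier results of these data known. An open region was assigned to a gene when the summit of its ATAC-seq peak lay in the gene body or within 50 kb of it. By this rule the genes held 161 of the 117165 peaks of the control library and 169 of the 124935 peaks of the library of RPCs overexpressing Neurogenin 3 (Ngn3-OE), a basic helix-loop-helix transcription factor. ATAC-seq uses the Tn5 transposase to cut DNA that is free of nucleosomes. Mouse pups received a control plasmid or the Ngn3 plasmid by in vivo retinal electroporation at postnatal day 1. GFP-positive cells were sorted at day 2 after electroporation, and about 50000 sorted cells went into each library. Both groups therefore share the electroporation, the GFP label and the sort, and each is a population of electroporated cells rather than a stable line. The samples, titled Ctrl and Ngn3OE, give 1 library per group, so no difference between Ngn3-OE and control could be tested, no p-value is given, and the intervals below cover counting error only.

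Wnt ligands bind Frizzled receptors such as Fzd5 and are held back by secreted antagonists such as Sfrp2, while Lef1 is a DNA-binding partner of beta-catenin and Axin2 is a feedback inhibitor that the pathway itself switches on. Fgf15 is a secreted ligand made by retinal progenitors, Fgfr1 is a receptor tyrosine kinase, and Spry2 is a feedback inhibitor of the kinase cascade below it. In the Hedgehog pathway Ptch1 is the receptor that inhibits Smo, Smo passes the signal on once Ptch1 is bound, and Gli1 is a transcription factor of the GLI family. Gli1 and Ptch1 are also classic targets of GLI proteins. These pathways are known for keeping progenitors of the developing eye dividing and uncommitted.

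The deposited lists hold peaks and not reads. From the fold enrichment and p-value of each peak the number of tags piled up at its summit was recovered as a whole number, and tags are the level used below. Ratios of tags, Ngn3-OE over control, were scaled by the genome-wide background of each list, and an interval of a ratio is the exact 95% binomial interval of its pair of tag numbers. On this scale the median log2 ratio of all 91741 shared control peaks was 0.12 and not 0, so each ratio below is to be read against 0.12. The cells carried open start sites of the progenitor genes, with a peak within 1 kb of a start site at 8 of 8 progenitor markers in both libraries. Tags at the strongest start-site peaks of this list summed to 397 in control and 356 in Ngn3-OE. The 4 rod markers summed to 151 and 222 tags, and the 4 ganglion cell markers, with no peak at Sncg in either library, to 57 and 80. At Pou4f2 (9 and 21 tags), a ganglion cell marker, and Pax6 (39 and 29), a progenitor marker, the strongest peak was not the same region in both libraries. Endothelial markers had a peak at 1 of 4 genes (Kdr), with 43 and 28 tags, whereas 0 of 4 microglial and 0 of 4 pigment epithelium markers had one in either library. The part that a different mix of cells has in the values below was not tested, and fewer open cells and less opening per cell cannot be told apart in sorted bulk cells.

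The signalling genes kept most of their open regions in both libraries. Of the 161 control peaks, 129 overlapped an Ngn3-OE peak, or 80.1% (95% Wilson interval 73.3 to 85.6), and 32, or 19.9%, were found only in control, where 21.7% of all control peaks were control-only. Of the 169 Ngn3-OE peaks, 127 were shared (75.1%, 68.1 to 81.1) and 42, or 24.9%, were found only in Ngn3-OE, against 26.6% of all Ngn3-OE peaks. Both shares lay near those of the whole lists. The log2 ratio of Ngn3-OE-only to control-only peaks was 0.39 at these genes (-0.27 to 1.06) and 0.39 over all peaks. The peaks found in a single library were weak. Their median was 6.5 tags in control and 6 in Ngn3-OE, against 17 for the shared peaks of either library, and only 6 control-only and 14 Ngn3-OE-only peaks reached a −log10 q of 5. With peaks of that strength alone the log2 ratio was 1.22 (-0.16 to 2.60), against 0.48 over all peaks of that strength, a value within the interval. With peaks whose nearest start site belonged to the member it was -0.77 (-1.89 to 0.36), from 17 control-only and 10 Ngn3-OE-only peaks, where the same rule over all coding genes gave 0.48, a value above the interval. The balance of single-library peaks at the members therefore changed direction with the rule.

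**Figure D1:**
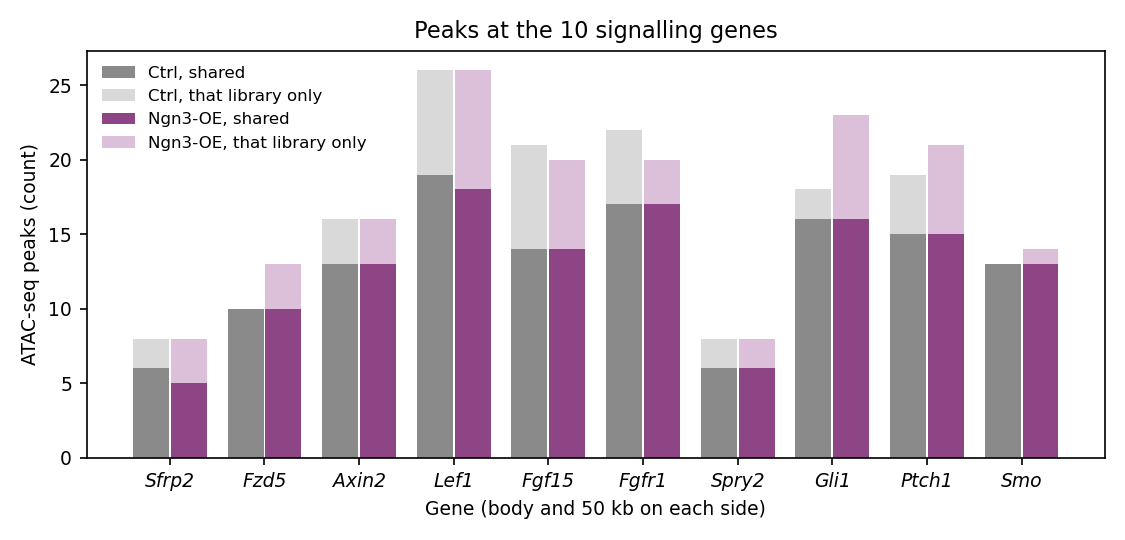
Number of ATAC-seq peaks (y axis) at each of the 10 genes (x axis) in control (grey) and Ngn3-OE (purple), split into shared peaks (dark) and peaks of that library only (pale). Smo and Fzd5 had 0 control-only peaks, while Lef1 and Fgf15 had 7 each.

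Among the genes, Lef1 had 26 peaks in either library, the highest number, and Sfrp2 and Spry2 had 8 in either. All 13 control peaks at Smo and all 10 at Fzd5 were shared. At Gli1 the number was 18 in control and 23 in Ngn3-OE, with 7 found only in Ngn3-OE, and at Ptch1 it was 19 and 21, with 4 and 6 single-library peaks. The control peaks lay mostly outside coding sequence, with 82 in introns, 45 between genes, 29 in untranslated or noncoding exons and 5 in coding exons. In the top 10% of their list by −log10 q stood 27 of 161 control peaks (16.8%, 11.8 to 23.3) and 24 of 169 Ngn3-OE peaks (14.2%, 9.73 to 20.3). The Ngn3-OE interval includes 10%. Start-site peaks of other genes are among them, as at Ahcyl2 in the Smo window with 122 tags in Ngn3-OE. Not every peak need belong to the member. Only 70 of the 161 control peaks had the member's own start site as the nearest one, 34 lay within 1 kb of the start site of another gene, and 7 of the 10 windows held further coding genes, 8 of them in the Gli1 window. At the edge of the windows, the outermost control summit lay 47805 bp beyond the Fgfr1 body with 11 tags, and the first one left out lay 50175 bp beyond Fgf15, also with 11.

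Where both libraries had a peak, the signalling genes stood somewhat lower in Ngn3-OE than shared peaks in general. The 129 shared control peaks had a median log2 ratio of 0.02 (quartiles -0.27 and 0.37, range -1.76 to 1.19), and 81 of them (62.8%, 54.2 to 70.6) lay below the all-peak median. At least 1.5-fold higher were 18 (14.0%), where 20.6% of all shared peaks were, and at least 1.5-fold lower were 12 (9.30%), where 11.4% were. Measured from the all-peak median instead of 0, the counts were 9 higher (6.98%, 3.71 to 12.7) and 18 lower (14.0%), where 15.8% and 14.8% of all shared peaks were, so the members had fewer higher peaks and a like share of lower ones. Of the 99 shared peaks with 10 tags or more in either library, 9 were higher (9.09%, 4.86 to 16.4), against 21.3% of all such peaks, and 12 were lower (12.1%), against 12.2%. The weaker peaks did not show this shortfall. Of the 30 with fewer tags, 9 were higher (16.7 to 47.9%), against 19.1% of all such peaks, and 0 were lower (up to 11.4%), against 9.61%, and both intervals include the share of all such peaks. The intervals of 7 shared peaks (5.43%) lay wholly below the all-peak median, against 3.23% of all shared peaks, and 0 lay wholly above it, against 2.28%. These are shares of regions in a pair of libraries and carry no replicate error.

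Summed over the shared peaks of a gene, 9 of the 10 genes lay below the all-peak median, as did 55.5% of the 19089 coding genes measured with the same window. Sfrp2 had 116 tags in control and 85 in Ngn3-OE, a log2 ratio of -0.42 (-0.85 to -0.01). Fzd5 had 438 and 367 (-0.23, -0.44 to -0.03), and Spry2 had 372 and 317 (-0.21, -0.43 to 0.01). The intervals of these 3 genes, a pathway antagonist, a receptor and a feedback inhibitor, lay wholly below the all-peak median, as did those of 6.70% of coding genes. When the region with the largest fall was left out of each, the ratios were 0.02, -0.10 and -0.11, and the interval of Fzd5 alone still lay below it. The value of Fzd5 depends on the window, at -0.0011 with a flank of 10 kb and -0.56 over peaks nearest its own start. Of the 10 genes, 0 lay wholly above it, against 3.44% of coding genes, and 0 reached 1.5-fold, where 1.23% of coding genes were at least that much lower and 2.37% higher. The other genes stood close to equal levels. Lef1 had 266 and 246 tags (-0.09), Ptch1 433 and 406 (-0.07), Fgf15 297 and 284 (-0.04) and Axin2 207 and 204 (0.00). Over shared peaks nearest its own start alone the ratio of Fgf15 was 0.40. That sum leaves out the control-only peaks nearest the same start, with 15 and 10 tags. Fgfr1 had 537 and 535 (0.02), Gli1 599 and 621 (0.08) and Smo 450 and 489 (0.14). Smo alone stood above the all-peak median, with an interval from -0.04 to 0.33, and it fell below that median with a flank of 10 kb (-0.04) and over peaks nearest its own start (0.07).

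**Figure D2:**
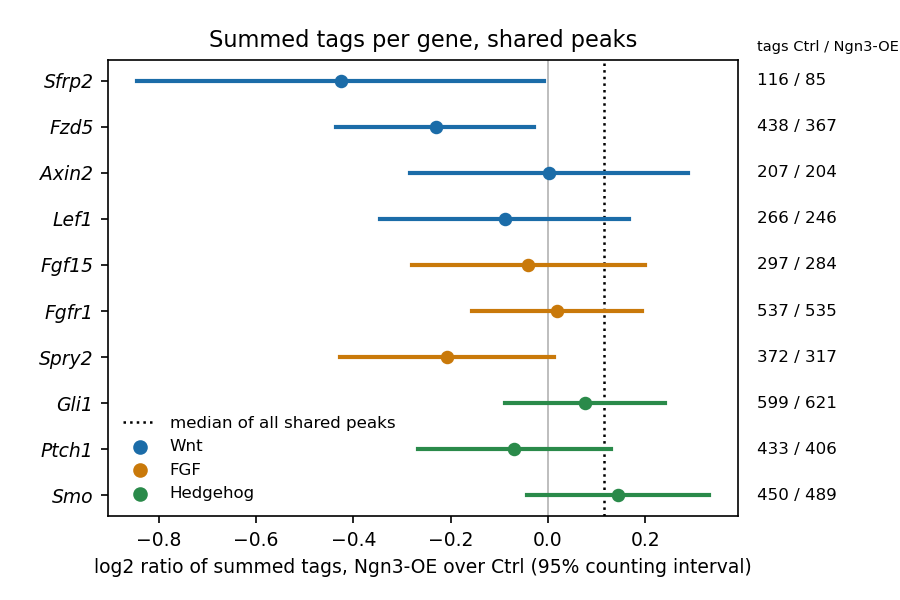
Log2 ratio of tags summed over shared peaks, Ngn3-OE over control (x axis), for each gene (y axis), with points for the ratio, bars for the exact 95% counting interval and the summed tags at the right. The dotted line marks the median of all shared peaks (0.12), and the bars of Sfrp2, Fzd5 and Spry2 end to its left.

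The start sites of all 10 genes were open in both libraries. The strongest peak within 1 kb of a start site had most tags at Spry2, with 141 in control and 113 in Ngn3-OE, followed by Fzd5 with 99 and 84 and Fgfr1 with 90 and 85. Axin2 had 63 and 57 and Smo 54 and 44. Lower tags were found at Sfrp2 with 22 and 14, Fgf15 with 23 and 31, and Gli1 with 15 and 13. Fgf15 was the only one of these 8 genes with more tags in Ngn3-OE (log2 0.45, -0.37 to 1.30), and the intervals of all 8 include 0. That of Spry2 (-0.67 to 0.07) lay wholly below the all-peak median, and those of the other 7 include it. At the other two genes the strongest start-site peak was not the same region in both libraries. At Ptch1 the peak 644 bp upstream of a start site had 55 tags in control and 37 in Ngn3-OE, whereas the peak 251 bp past one had 26 and 38. At Lef1 the peak 756 bp past the first start site had 20 and 9 tags, and the peak 314 bp before the second had 14 and 20. Over all 19 shared peaks within 1 kb of a member's own start site the median log2 ratio was -0.12, against 0.09 for all shared peaks within 1 kb of a start site. Of the 19, 14 lay below the all-peak median, as did 52.8% of all shared peaks near start sites, and 13 lay below the median of those peaks. At least 1.5-fold higher were 0 and lower 2, where 13.0% of all shared peaks near start sites were higher and 6.02% lower. The 80 shared peaks over 1 kb from any start site had a median of 0.02, against 0.14 for all such peaks. Of these, 14 were higher (17.5%, 10.7 to 27.3) and 10 lower (12.5%, 6.93 to 21.5), against 23.4% and 13.3% of all such peaks, and both intervals include the share of all.

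**Figure D3:**
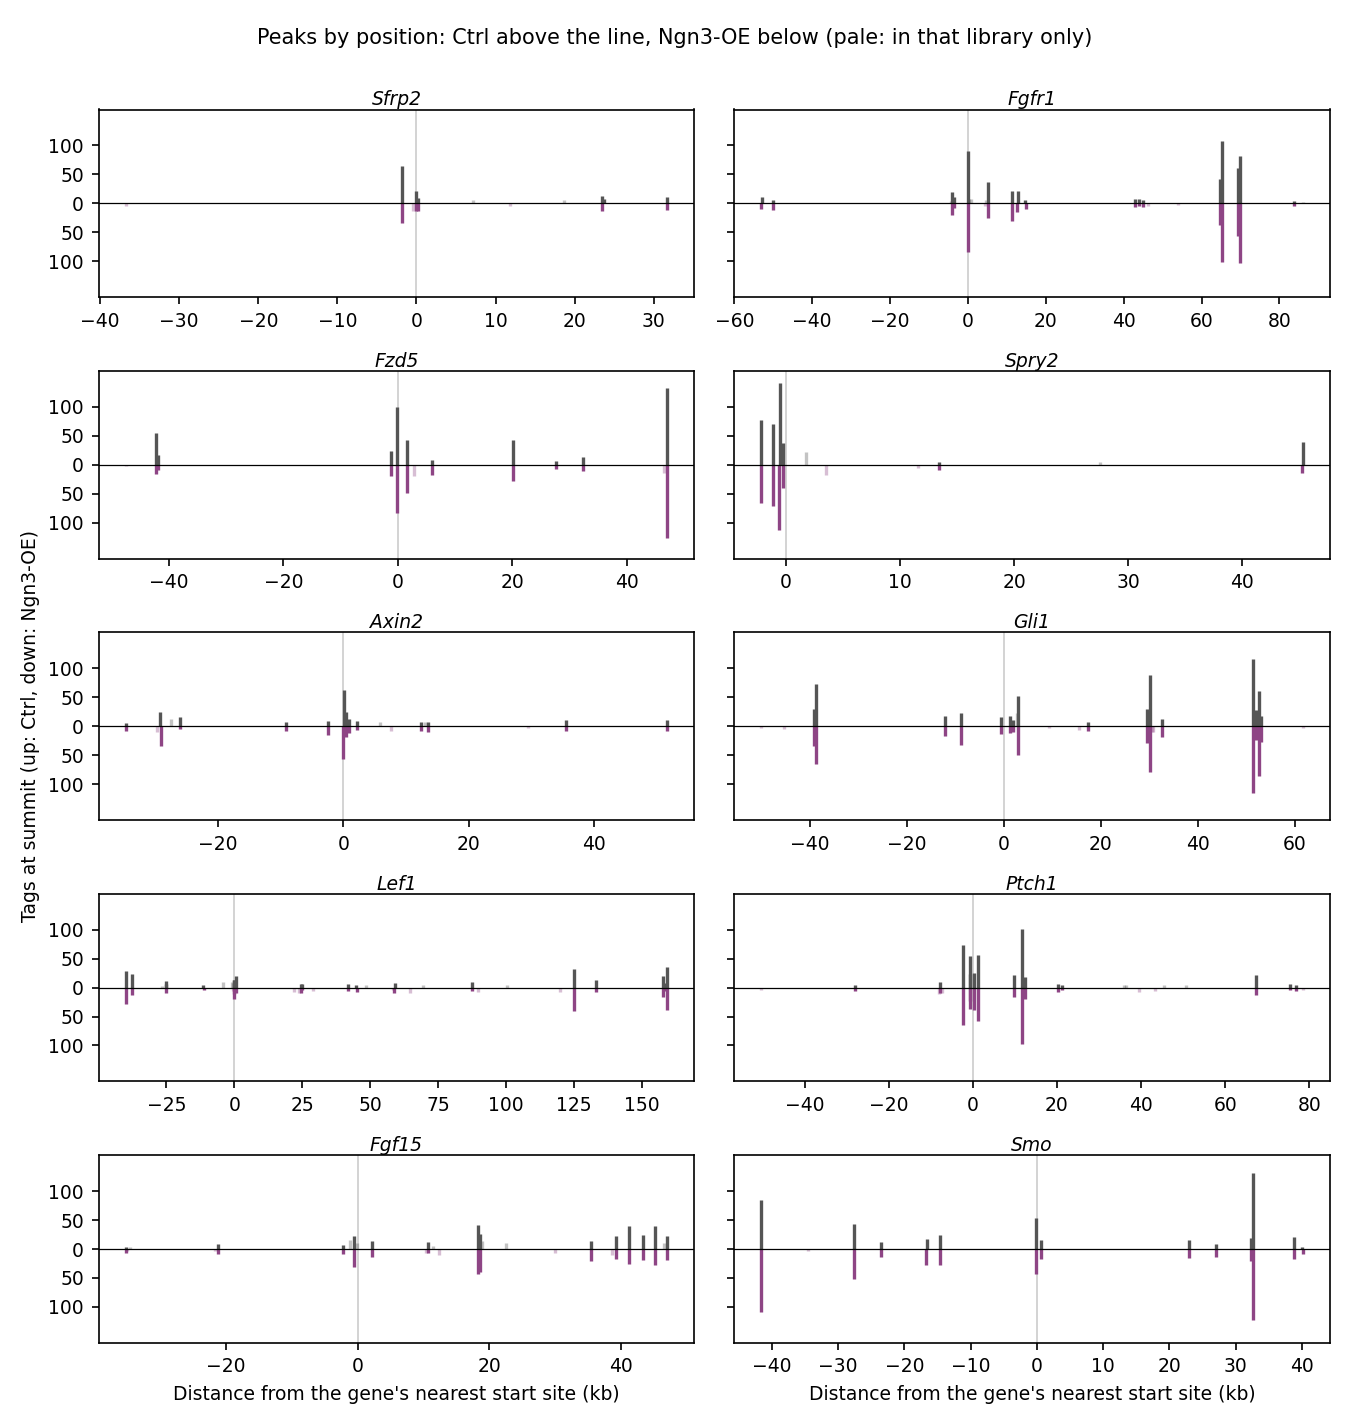
Tags at the summit of each peak (y axis), control upward in grey and Ngn3-OE downward in purple, against the distance in kb from the nearest start site of the gene (x axis, negative upstream), with peaks of a single library in pale colour. The bars mirror each other at most positions, and the exceptions include the peaks 42266 bp upstream of Fzd5 (55 and 16 tags), 1886 bp upstream of Sfrp2 (65 and 34) and 45299 bp downstream of the Spry2 start (40 and 15).

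In the Wnt group, Fzd5 and Sfrp2 each had a strong distal region with far fewer tags in Ngn3-OE. Fzd5, the Frizzled receptor of the early eye field, had its strongest peak away from start sites 42266 bp upstream, at chr1:64779922-64780137 between genes. It had 55 tags in control and 16 in Ngn3-OE, a log2 ratio of -1.76 (-2.66 to -0.93), the lowest of all shared peaks at the 10 genes, and a smaller peak beside it at -41833 bp had 16 and 9. The region accounts for 39 of the 71 tags by which the sums of Fzd5 differ. Without it the sums were 383 and 351 (-0.10, -0.31 to 0.11). Among the other peaks, that in an intron of the neighbour Ccnyl1, at 20027 bp, had 42 and 28 tags, and the start-site peak 99 and 84. Peaks in the Fzd5 coding exon went the other way. The one at 1604 bp had 42 and 49 tags (0.25, -0.38 to 0.88), and one at 2821 bp, with 19 tags, was found only in Ngn3-OE. Sfrp2, whose product binds Wnt ligands outside the cell, had its strongest peak 1886 bp upstream, at chr3:83764367-83764515, with 65 tags in control and 34 in Ngn3-OE (-0.91, -1.55 to -0.29). This region holds all 31 tags by which the sums of Sfrp2 differ, which without it were 51 in both libraries (0.02, -0.56 to 0.61). A peak of Ngn3-OE only, with 13 tags, lay closer to the start, at -381 bp. The 2 regions with lower tags are shown because they had the largest differences of their genes, as the 100 bp on each side of the control summit, plus strand of mm10, for chr1:64779917-64780117 and chr3:83764335-83764535. Neither window holds any of the 5 motifs searched below, so no letters are in capitals.
Fzd5 -42266 bp: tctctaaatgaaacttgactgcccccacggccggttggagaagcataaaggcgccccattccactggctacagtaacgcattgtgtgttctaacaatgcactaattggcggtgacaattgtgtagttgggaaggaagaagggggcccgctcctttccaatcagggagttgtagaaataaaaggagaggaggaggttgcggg
Sfrp2 -1886 bp: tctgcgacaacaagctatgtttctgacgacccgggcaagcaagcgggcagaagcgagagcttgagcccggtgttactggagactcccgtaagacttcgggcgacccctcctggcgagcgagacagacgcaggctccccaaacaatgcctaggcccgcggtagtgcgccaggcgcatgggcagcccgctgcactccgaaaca

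Axin2, read out widely as a Wnt target, differed little at its start site and in its sum. Its upstream regions differed in both directions. The strongest distal peak, 29178 bp upstream, had 25 tags in control and 34 in Ngn3-OE (0.47, -0.32 to 1.27). A peak 2508 bp upstream had 9 and 16 (0.85, -0.41 to 2.21), and both intervals include 0. In between, a peak 26041 bp upstream had 15 and 5 (-1.56, -3.38 to -0.03), and one 27556 bp upstream, at chr11:108892708-108892837, had 13 tags in control and was not called in Ngn3-OE. Lef1, the beta-catenin partner, had the strongest distal peak of its window beyond its own body, in an intron of the neighbour Hadh, with 32 and 40 tags. The upstream region with the lowest ratio, 37672 bp before the start, had 23 and 12 tags (-0.91, -2.06 to 0.15), while the neighbour 39974 bp upstream had 29 and 28. The Axin2 and Lef1 regions are shown because they hold the letters of the TCF/LEF site, CTTTGAT or its reverse complement ATCAAAG, which are in capitals. The windows are chr11:108892693-108892893 and chr3:131072699-131072899, plus strand of mm10, and the first run of capitals in the Lef1 window is a SOX match. The Lef1 region was named after its values were seen.
Axin2 -27556 bp: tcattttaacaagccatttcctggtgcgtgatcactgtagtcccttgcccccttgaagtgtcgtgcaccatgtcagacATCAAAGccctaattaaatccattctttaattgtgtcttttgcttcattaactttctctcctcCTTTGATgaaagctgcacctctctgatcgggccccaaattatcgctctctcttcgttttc
Lef1 -37672 bp: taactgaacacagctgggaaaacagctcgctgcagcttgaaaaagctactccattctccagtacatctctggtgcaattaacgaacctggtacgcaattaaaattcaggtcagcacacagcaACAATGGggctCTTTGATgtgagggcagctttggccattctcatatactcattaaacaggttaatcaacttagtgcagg

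In the FGF group, Spry2 had the lower values. Its start is covered by a cluster of peaks, at -2134 bp with 77 tags in control and 67 in Ngn3-OE, at -1141 bp with 71 and 72, at -547 bp with 141 and 113 (-0.30, -0.67 to 0.07) and at -277 bp with 38 and 41. The values were lower in Ngn3-OE at -547 bp and at -2134 bp (-0.18, -0.67 to 0.31), and both intervals include 0. A lone region 45299 bp downstream of the start, at chr14:105851387-105851693 between genes, had 40 tags in control and 15 in Ngn3-OE (-1.39, -2.35 to -0.50). It is shown because it is the second lowest ratio among members with 20 tags or more in control and holds a GLI match (capitals) on the minus strand, and the window is chr14:105851420-105851620.
Spry2 45299 bp: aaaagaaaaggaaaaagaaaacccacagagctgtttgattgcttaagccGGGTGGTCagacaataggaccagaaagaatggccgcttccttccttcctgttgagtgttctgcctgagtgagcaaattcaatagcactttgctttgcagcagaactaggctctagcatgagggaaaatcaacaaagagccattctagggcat
Fgfr1, the receptor, had 90 and 85 tags at its main start site, and its strongest distal peak, in an intron 5039 bp past a start site, had 37 and 25 (-0.54, -1.33 to 0.23). Another intron peak at 11409 bp went the other way with 22 and 30. Its window also holds strong start-site peaks of neighbouring genes, such as Nsd3 with 81 and 103 tags. Fgf15, the ligand, had 2 control-only peaks around its start, with 15 tags at -1232 bp and 10 tags at -68 bp, on either side of the shared peak at -519 bp with 23 and 31. Most of its window belongs to other genes, and the peak with the highest ratio of 20 tags or more was at the start of LTO1, with 26 and 40 tags (0.65, -0.10 to 1.42).

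In the Hedgehog group the sums differed little, yet Gli1 held the strongest single-library peak of all 10 genes. In its introns, the region 2947 bp past the start had 53 tags in control and 49 in Ngn3-OE. A control peak beside it, at chr10:127339287-127339448 and 2626 bp past the start, had 23 tags and a −log10 q of 17.2 and was not called in Ngn3-OE. The peak 1219 bp past the start had 17 and 11 tags (-0.60, -1.84 to 0.57) and the start-site peak 15 and 13. Of these 4 regions of Gli1 itself, 3 had fewer tags in Ngn3-OE and 1 was missing from its list, while a further one, at 1926 bp, had 10 tags in both. Of all shared peaks 37.7% had a ratio below 0, and 21.7% of all control peaks were control-only. The intervals of the 3 lower ratios include 0. Counting only shared peaks whose nearest start site was that of Gli1, the summed ratio was -0.17, whereas the whole window gave 0.08. The higher values in the window were at other genes, as at Mbd6 with 61 and 86 tags (0.52, 0.03 to 1.02).

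Ptch1, the Hedgehog receptor, had the highest-ranked distal peak of the 10 genes, in an intron 11792 bp past a start site at chr13:63552623-63552869. It stood at the 98.6 percentile of the control list and the 98.3 percentile of the Ngn3-OE list, where it had 98 tags, and its ratio was close to 0 (-0.02, -0.44 to 0.40). The intron peak at 1162 bp had 56 and 58 and the peak at -2326 bp 73 and 65. Against these equal levels, the peak at -644 bp with 55 and 37 tags (-0.55, -1.19 to 0.08) and a peak at 67366 bp with 22 and 13 (-0.73, -1.85 to 0.32) were lower in Ngn3-OE, the latter beyond the Ptch1 body in an intron of the neighbour Fancc. Smo, the transducer, had 54 and 44 tags at its start site and higher levels in Ngn3-OE at its upstream regions, with 43 and 52 tags at -27604 bp, in an intron of a neighbour, 25 and 28 at -14630 bp and 17 and 27 at -16645 bp (0.69, -0.24 to 1.66). All 4 intervals of Smo named here include 0. Shown are the Gli1 region and the 2 Ptch1 regions with most tags, of 3, that hold the GLI letters, GACCACCC or the reverse complement GGGTGGTC, since both genes are targets of GLI proteins, and the Gli1 region of control only, whose capitals are an ETS match. The windows are chr10:127340655-127340855, chr10:127339248-127339448, chr13:63563273-63563473 and chr13:63566279-63566479, plus strand of mm10. Further capitals mark a SOX match in the first Ptch1 window and an E-box in the second. The Gli1 region at 1219 bp and the Ptch1 region at 1162 bp were picked after their values and motifs were seen.
Gli1 1219 bp: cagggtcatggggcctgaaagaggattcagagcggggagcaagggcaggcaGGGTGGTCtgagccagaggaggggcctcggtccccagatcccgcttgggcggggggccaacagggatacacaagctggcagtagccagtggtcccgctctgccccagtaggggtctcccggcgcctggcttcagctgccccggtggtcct
Gli1 2626 bp: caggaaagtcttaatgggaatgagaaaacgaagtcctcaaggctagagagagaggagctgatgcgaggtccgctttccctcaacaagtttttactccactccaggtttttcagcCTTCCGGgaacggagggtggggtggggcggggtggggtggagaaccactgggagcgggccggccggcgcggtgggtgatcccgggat
Ptch1 1162 bp: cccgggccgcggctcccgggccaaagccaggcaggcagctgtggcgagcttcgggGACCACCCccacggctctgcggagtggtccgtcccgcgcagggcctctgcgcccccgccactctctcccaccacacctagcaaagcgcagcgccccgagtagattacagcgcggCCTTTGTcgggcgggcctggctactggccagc
Ptch1 -644 bp: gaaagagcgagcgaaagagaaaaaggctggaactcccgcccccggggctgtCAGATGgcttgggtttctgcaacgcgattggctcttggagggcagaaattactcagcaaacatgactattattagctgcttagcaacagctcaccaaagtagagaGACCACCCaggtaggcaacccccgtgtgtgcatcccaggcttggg

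**Figure D4:**
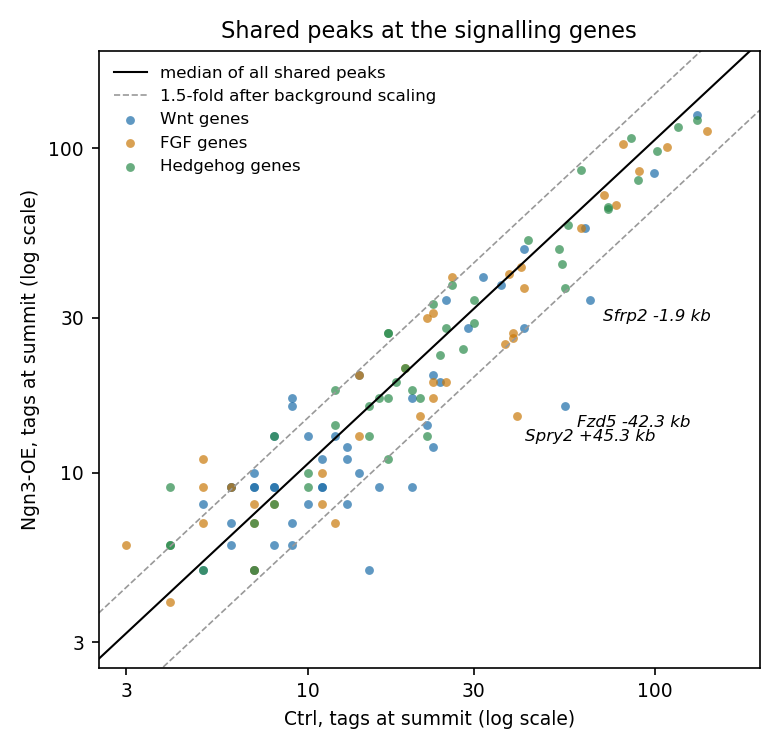
Tags at the summit of the 129 shared peaks in control (x axis, log scale) and Ngn3-OE (y axis, log scale), coloured by pathway, with the median of all shared peaks (solid line) and 1.5-fold on each side of equal tags after scaling by the lowest background of each list (dashed). Most points lie between the dashed lines, and the Fzd5, Spry2 and Sfrp2 regions with 55, 40 and 65 control tags lie furthest below them among peaks with 40 control tags or more.

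A few of the regions hold the GLI letters, more often than peaks in general. The letters stood within 100 bp of the summit of 7 of 161 control peaks (4.35%, 2.12 to 8.70), against 0.527% of all control peaks, and of 7 of 169 Ngn3-OE peaks (4.14%, 2.02 to 8.30), against 0.475%. Ptch1 held 3 of them and Axin2, Spry2, Gli1 and Smo 1 each, while the other 5 genes held 0, and all 7 were peaks of both libraries. They did not move together: Ptch1 had 56 and 58, 55 and 37, and 10 and 9 tags, Smo 17 and 27, Axin2 8 and 9, Gli1 17 and 11 and Spry2 40 and 15. Members had a median GC content of 57.2% in these windows and all control peaks 51.7%, and among control peaks with at least the members' median GC the letters stood in 0.731%, against 5 of 81 at the members. Within 50 bp of the summit the letters stood in 4 member peaks (2.48%, against 0.256% of all control peaks) and within 250 bp in 7 (4.35%, against 1.36%). A match of 8 letters describes the sequence and shows no binding.

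For the other motifs of 6 or 7 letters the intervals include the shares over all peaks. TCF/LEF letters stood in 5 control peaks (3.11%, 1.33 to 7.06, against 2.64%), namely 3 at Axin2, including its start-site peak with 63 and 57 tags, and 2 at Lef1. ETS letters, CCGGAAG, stood in 7 (4.35%, against 3.19%), and SOX letters, CCATTGT or CCTTTGT, in 11 (6.83%, against 8.80%). Exact TCF/LEF and SOX matches cannot overlap each other. The E-box core CATCTG, to which proneural factors such as Ngn3 are known to bind, stood in 29 of the 161 (95% interval 12.8 to 24.7%, against 21.3%). Among peaks of Ngn3-OE only it stood in 13 of 42 (31.0%, 19.1 to 46.0), against 25.3% of all Ngn3-OE-only peaks, so the interval includes the share of the whole list. The 10-letter E-box stood in 3 control peaks (1.86%, 0.636 to 5.33, against 3.65%) and in 2 of 169 Ngn3-OE peaks (1.18%, 0.325 to 4.21, against 4.27%), below the share of all Ngn3-OE peaks. Each motif was searched on both strands.

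**Figure D5:**
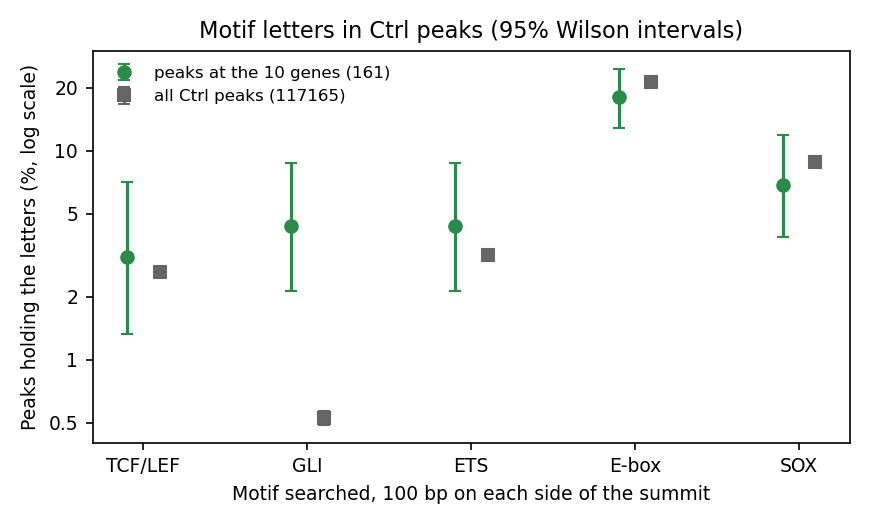
Share of control peaks (y axis, percent, log scale) that hold the letters of each motif (x axis) within 100 bp of the summit, for the 161 peaks at the 10 genes (circles) and all 117165 control peaks (squares), with 95% Wilson intervals. The GLI interval (2.12 to 8.70%) lies above the share of all peaks (0.527%), and for the other 4 motifs the interval includes the share of all peaks.

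Most genes of the wider pathways also lay below the all-peak median in their sums, while their single peaks were divided much as peaks in general. Of 926 shared peaks at these genes 19.9% were at least 1.5-fold higher and 12.4% lower, where 20.6% and 11.4% of all shared peaks were, so the lower share of higher peaks at the 10 genes was not seen there. Of 68 further genes (14 Hedgehog, 32 Wnt and 22 FGF), 48 had a summed ratio below the all-peak median and 20 above it, where 55.5% of coding genes were below, while 25 were below 0 and 43 above. By pathway, 9 of 14, 22 of 32 and 17 of 22 were below the all-peak median. The median log2 ratio of the 68 genes was 0.05, where that of all coding genes was 0.09. The intervals of 9 of the 68 genes lay wholly below the all-peak median, where 6.70% of coding genes did, and 0 wholly above, where 3.44% did. Among genes with 100 summed tags or more in both libraries, the lowest were Dkk3, of the Dickkopf family, with 327 and 246 tags (-0.39, -0.63 to -0.14), Tcf7l2, a DNA-binding partner of beta-catenin, with 316 and 242 (-0.36, -0.61 to -0.11), and Etv4, an ETS factor that FGF signalling induces, with 133 and 108 (-0.28, -0.66 to 0.10). The highest were Lgr5, a receptor for R-spondins, with 266 and 329 (0.33, 0.09 to 0.57), Wnt3, a ligand, with 125 and 152 (0.31, -0.04 to 0.66), and Boc, a Hedgehog co-receptor, with 135 and 163 (0.30, -0.04 to 0.64). Only Hhip, a Hedgehog-binding inhibitor and GLI target with fewer tags than that limit, passed 1.5-fold, with 114 in control and 74 in Ngn3-OE (-0.60, -1.04 to -0.16), as did 1.23% of coding genes in the lower direction. It was named after its value was seen, as was Gas1, a Hedgehog co-receptor, with 139 and 94 (-0.54, -0.93 to -0.15). The annotated body of Fgfr2 spans 2961 kb and so holds 224 control peaks of many genes. Without it, 48 of 67 genes stayed below the all-peak median.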

How the data were processed

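Peaks at 10 signalling genes were compared between 1 control and 1 Ngn3-OE ATAC-seq library of sorted late RPCs. The 10 genes, the wider lists and the motifs were chosen with earlier results of these data known. Per the study's methods, the authors trimmed reads (Trimmomatic), aligned them to mm10 (Bowtie2), removed duplicates, mitochondrial and blacklisted reads, kept fragments up to 120 bp, shifted reads by 4 and 5 bp for the Tn5 cut and called peaks per library in MACS2 at a q-value limit of 0.05, so longer nucleosomal fragments do not enter. The deposited columns used are the fold enrichment at the summit (a ratio to local background), the −log10 p-value and −log10 q-value, the summit offset and the interval. The integer score the authors deposited was not used. None of these is normalised between libraries, and read totals are not given in the sources used here.

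Lines on the 21 assembled chromosomes with equal intervals were merged (117165 and 124935 peaks), and a peak was shared when it overlapped one of the other list by 1 bp or more. Summit tags were solved from the fold enrichment and −log10 p under the Poisson model of MACS2, came out whole for every line (largest residual 0.000675 and 0.00324) and were scaled by the lowest background of each list (0.261 and 0.257). A control peak was paired with the Ngn3-OE peak it overlapped most, and only mutual pairs entered the sums per gene. Genes were taken from GENCODE M21 and sequence from RefSeq GRCm38. Scripts used Python 3.11.15, pandas 2.3.3, SciPy 1.17.1 and pysam 0.24.0 and were tested on simulated peaks. The rule for naming peaks per gene took the start-site peak, the strongest distal peak, the strongest of either library only and the shared peak of 20 tags or more with the largest ratio in each direction. Not every peak under this rule is given above, and further peaks outside it were named beside them. In the wider pathways, the 3 highest and 3 lowest sums of 100 tags or more were named. Peaks named for the size of their ratio are descriptions, as selection by size favours chance extremes. Alternatives were other flanks, filters, scalings, overlaps and windows.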

Additional observations from a re-analysis of the deposited data

How the results depend on the processing

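No paired analysis was possible because each group has 1 library, and no replicate could be left out. Of 49 values of the main results under other settings, 31 stayed within the limits of the main value (counts within 1.5 times, other values within their interval or spread), and 18 moved. The log2 ratio of single-library peaks changed sign (0.39, and -0.77 with peaks nearest the member's start) and so has no settled direction. The median log2 ratio of the members was 0.02, -0.07 with 10 tags or more and -0.04 with peaks nearest the member's start, on both sides of 0 and each below the all-peak median of 0.12. A flank of 10 kb gave 89 control and 92 Ngn3-OE peaks. Of 67 shared peaks 6 were at least 1.5-fold higher (8.96%) and 5 lower (7.46%), where 20.6% and 11.4% of all shared peaks were. Peaks whose nearest start site is the member's numbered 70 and 62, with 83.9% of the Ngn3-OE peaks shared. Of the 53 shared control peaks among them, 5 were higher (9.43%) and 8 lower (15.1%). These settings keep fewer peaks. A −log10 q of 5 or more raised the shared share to 94.4% of control and 88.5% of Ngn3-OE peaks and the log2 ratio of single-library peaks to 1.22, and an overlap of 50% of both peaks lowered the control share to 72.0%. With 10 tags or more 9 of 99 peaks were higher (9.09%, against 21.3% of all such peaks) and 12 lower (12.1%, against 12.2%). With a fold of 2 there were 3 higher and 4 lower of 129. Measured from the median of all shared peaks, a setting added after the data were seen, the median log2 ratio of the members was -0.0911. By that measure 9 peaks were higher (6.98%) and 18 lower (14.0%), where 15.8% and 14.8% of all shared peaks were. Of 65 values of single genes and motifs, 47 stayed within their limits. Left without its region with the largest fall, a setting also added later, the sum of Sfrp2 reversed from -0.42 to 0.0241. The other exceptions were shares of the TCF/LEF, E-box and SOX letters in other windows or with the 10-letter E-box, and the sums of Fzd5 (-0.56), Fgf15 (0.40) and Gli1 (-0.17) over peaks nearest their own start and of Fzd5 with a flank of 10 kb (-0.0011). These sums hold shared peaks only, so the control-only peaks nearest the starts of Fgf15 and Gli1 do not enter them. A peak of 6 tags has a wide counting interval, yet the counts depend on weak peaks. The 30 shared peaks with under 10 tags in both libraries gave 9 of the 18 higher peaks and 0 of the 12 lower ones. Of all such peaks 19.1% were higher and 9.61% lower.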

Other observations

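Ccnd1, the gene of cyclin D1, which drives cells from G1 into S phase and is highly expressed in retinal progenitors, lies in the Fgf15 window. Of the 6 shared peaks of this window in its body or with its start as the nearest one, 5 had fewer tags in Ngn3-OE and 1 had more. Over the whole list, 37.7% of shared peaks had a ratio below 0. The start-site peak, 77 bp from the start, had 25 tags in control and 19 in Ngn3-OE, the shared regions on its upstream side had 39 and 27 and 23 and 19, and the shared intron regions had 39 and 26 and 23 and 17. A peak in a noncoding or untranslated exon, 7899 bp from the start, went the other way with 14 and 20. Each library also had a peak of 11 tags here that the other lacked, 3145 bp upstream of the start in control and in an intron, 4754 bp from the start, in Ngn3-OE. Each interval of the 6 ratios includes 0, the gene was picked after its values were seen, and the difference was not tested.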
